A study of Arabidopsis thaliana with 40 samples.

Results

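The heat shock genes described here are 35 Arabidopsis genes, given as a list of gene identifiers, among 33601 gene rows of the tables. They comprise 12 small heat shock proteins (HSPs), 1 HSP101, 5 HSP70s, 4 HSP90s, 10 heat shock factors (HSFs) and 3 further genes, the coactivator gene *MBF1C*, the peptidyl-prolyl isomerase gene *ROF1* and the temperature-induced lipocalin gene *TIL*. Total RNA and small RNAs (smRNAs) of 15 to 50 nt were sequenced from unopened flower buds of untreated 30-day-old plants. Col-0 wild type was sequenced beside the mutants *rdr1-1*, *rdr2-1*, *rdr3-1*, *rdr4-1*, *rdr5-1* and *rdr6-11*, each in 1 of the 6 RNA-dependent RNA polymerase (RDR) genes, and beside *sgs3-11* and *rdm12-1*, each in the gene of an RDR cofactor. Every group had 2 libraries of each kind. All plants, Col-0 included, were grown on soil at the same temperature and none was given a heat treatment.

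The libraries form 2 sets. The first set holds *rdr1*, *rdr2*, *rdr4*, *rdr5*, *rdr6*, *sgs3*, *rdm12* and their Col-0 (16 libraries of total RNA and 16 of smRNAs), and the second holds *rdr3* and its own Col-0 (4 of each). The *rdr3* total RNA labels name 2 control libraries that match none of the Col-0 total RNA libraries held here, and the remaining Col-0 pair was taken as the control by inference. The only abundance in the tables is the authors' mean, as log2 CPM, a read count scaled to the size of its library. This column was the same, to a difference of 0, in all 7 tables of the first set for each strand and kind of library, so it was read as a mean over that set. The values therefore could not separate a mutant from Col-0 or 1 mutant from another. They also carry no replicate values, so no SD, interval or test is given, neighbours in an order of levels cannot be told apart from equal ones, and the depth of each library is not known from the tables. Set, *rdr3* genotype and preparation of the libraries cannot be told apart, and the sets were scaled separately by the authors. The 2 strands were also scaled separately, so comparisons between them, such as antisense shares of smRNAs, are approximate. The lowest value of a table marks features without a counted read and is called the floor. In total RNA on the sense strand the floor was -1.85 in the first set and -2.83 in the second.

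Heat shock proteins are chaperones, which hold or refold proteins that lose their shape. Small HSPs bind unfolding proteins, HSP101 pulls apart protein aggregates, HSP70s bind and release exposed stretches of protein with ATP, and HSP90s act late in the folding of regulators and receptors. HSFs are the transcription factors that switch these genes on, with the class A1 factors as the first to act in heat and the class B factors mostly as repressors. In plants most small HSP genes are nearly silent without heat, whereas some HSP70 and HSP90 genes are expressed in all growing tissue. Flower buds carried the floral markers *AP1*, *AP3*, *PI*, *AG* and *SEP3* at 2.14 to 4.91 log2 CPM over both sets and *LFY* at -0.51 and -1.37, whereas the 5 root and seed markers lay between -1.85 and -1.81 in the first set and between -2.83 and -2.48 in the second, at or next to the floor.

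HSP70 and HSP90 genes held most of the heat shock RNA counted in buds. *HSC70-1* (AT5G02500, TAIR10.1 chromosome 5, 553745 to 556623, minus strand), a cytosolic HSP70 that is expressed without heat, had the highest level of the 35 genes, at 8.28 log2 CPM in the first set and 7.38 in the second. It held 55.5% of the summed CPM of the 35 genes in the first set and 50.8% in the second. Together the 9 HSP70 and HSP90 genes held 94.8% and 94.1%. All 35 genes summed to 559 CPM in the first set, which was 0.324% of the reads counted in features, and to 327 CPM or 0.267% in the second.

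Among the HSP70s, *HSC70-3* followed *HSC70-1* at 6.30 and 5.79 log2 CPM in the first and second set, and *HSC70-2* was at 4.29 and 3.44. The heat-inducible *HSP70-4* was at 1.42 and 0.92, and *HSP70B*, which is also heat-inducible, was at 0.45 and -0.14. Per kb of exon, with the floor subtracted, *HSC70-1* reached 121 CPM in the first set, above 99.9% of all genes. That was 4.99 times *HSC70-3*, 15.6 times *HSC70-2* and 286 times *HSP70B*. In the second set the same ratios per kb were 3.80, 15.1 and 218, so the order of these 4 genes was the same in both sets. *HSC70-2* lies beside *HSC70-1* on the same strand, at 550035 to 552827. The snoRNA gene AT3G02205 overlaps *HSC70-3* by 122 nt on the same strand. Its reads were not separated from those of *HSC70-3*, so their part in the levels of *HSC70-3* was not tested.

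The cytosolic HSP90s also spanned a wide range. *HSP90.2* had 5.93 and 5.28 log2 CPM in the first and second set, *HSP90.3* had 5.63 and 4.87, and *HSP90.4* had 3.03 and 2.30. The heat-inducible *HSP90.1* had 0.59 and -0.38. Per kb of exon *HSP90.2* exceeded *HSP90.1* by 36.1 times in the first set and 45.3 times in the second. *HSP90.2* and *HSP90.3* differed by 1.12 and 1.21 times, a difference that cannot be judged without replicates. *HSP90.2*, *HSP90.3* and *HSP90.4* lie in a cluster on chromosome 5, between 22677338 and 22689671, and share sequence. Of the 50-nt windows in their exons, 18.9% in *HSP90.2*, 24.8% in *HSP90.3* and 19.5% in *HSP90.4* occur elsewhere in the genome, against less than 1% in each of the other 32 members. Reads that align to several places are totalled in a row of their own in the tables, apart from the genes. How far this lowered the counts of the 3 genes was not tested.

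*HSP101* (AT1G74310), the disaggregase, was at 1.36 and 0.72 log2 CPM. *ROF1*, an FKBP-type isomerase that binds HSP90, was at 3.86 and 3.43, and *TIL*, a lipocalin of membranes, at 2.20 and 1.31. Per kb of exon in the first set *ROF1* stood above 95.2% of genes and *HSP101* above 62.8%, and *ROF1* exceeded *TIL* by 1.82 times in the first set and 2.50 times in the second. *MBF1C*, a coactivator in heat, was lower at -1.09 and -1.29.

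The 12 small HSP genes were all below 0 log2 CPM in both sets. Over all genes 43.1% were at 0 or above in the first set and 37.1% in the second. The highest small HSP was *HSP18.2*, a class I cytosolic protein, at -0.61 in the first set and -1.21 in the second. *HSP17.8* followed at -0.89 and -1.80, and *HSP17.6B* at -1.40 and -2.28. In the first set *HSP17.6C*, plastid *HSP21* and mitochondrial *HSP23.6* were at the floor, and in the second set 4 small HSPs were, namely *HSP17.6II*, *HSP17.6A*, *HSP21* and *HSP22.0*. Only *HSP21* was among them in both sets. The 12 genes summed to 0.884 CPM in the first set and 0.626 in the second, with the floor subtracted. *HSC70-1* alone had 351 times that sum in the first set and 265 times in the second. The smallest step above the floor was 0.00753 CPM in the first set, and *HSP17.6II*, *HSP17.6A* and *HSP22.0*, at -1.81, were only 0.00753, 0.00772 and 0.00771 CPM above it.

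The 10 HSF genes ranged from the floor to 0.68 log2 CPM in the first set and to 0.04 in the second, below *HSC70-1*, *HSC70-2*, *HSC70-3*, *HSP90.2*, *HSP90.3* and *HSP90.4* in each set. The 3 class A1 factors among the 35, which are early activators, were at 0.68 (*HSFA1D*), 0.54 (*HSFA1E*) and 0.13 (*HSFA1A*) log2 CPM in the first set, and at -0.63, -0.66 and -0.73 in the second. *HSFA1B*, a class A1 factor outside the 35, was higher than these 3 in both sets, at 0.71 and -0.08. The repressors *HSFB2A* and *HSFB2B* were at 0.54 and 0.45 in the first set and at -0.23 and 0.04 in the second. *HSFA4A* was at 0.01 and -0.55 and *HSFA3*, which acts in heat and drought, at -0.22 and -1.30. *HSFA2*, which prolongs the heat response and is itself induced by heat, was at -1.63 and -2.08, near the floor. *HSFA7A* and *HSFB1* were at the floor in both sets.

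The values of *HSFB1* (AT4G36990) need a caution on counting. They were at the floor on both strands in total RNA and in smRNAs of both sets, while a 500-nt bin over it held 0.0477 CPM of smRNAs in the first set. The row AT4G36988, which the tables hold beside it and whose position was not used here, was at the floor in the same 8 tables. Whether reads that fit both rows were counted for neither was not tested.

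**Figure D1:**
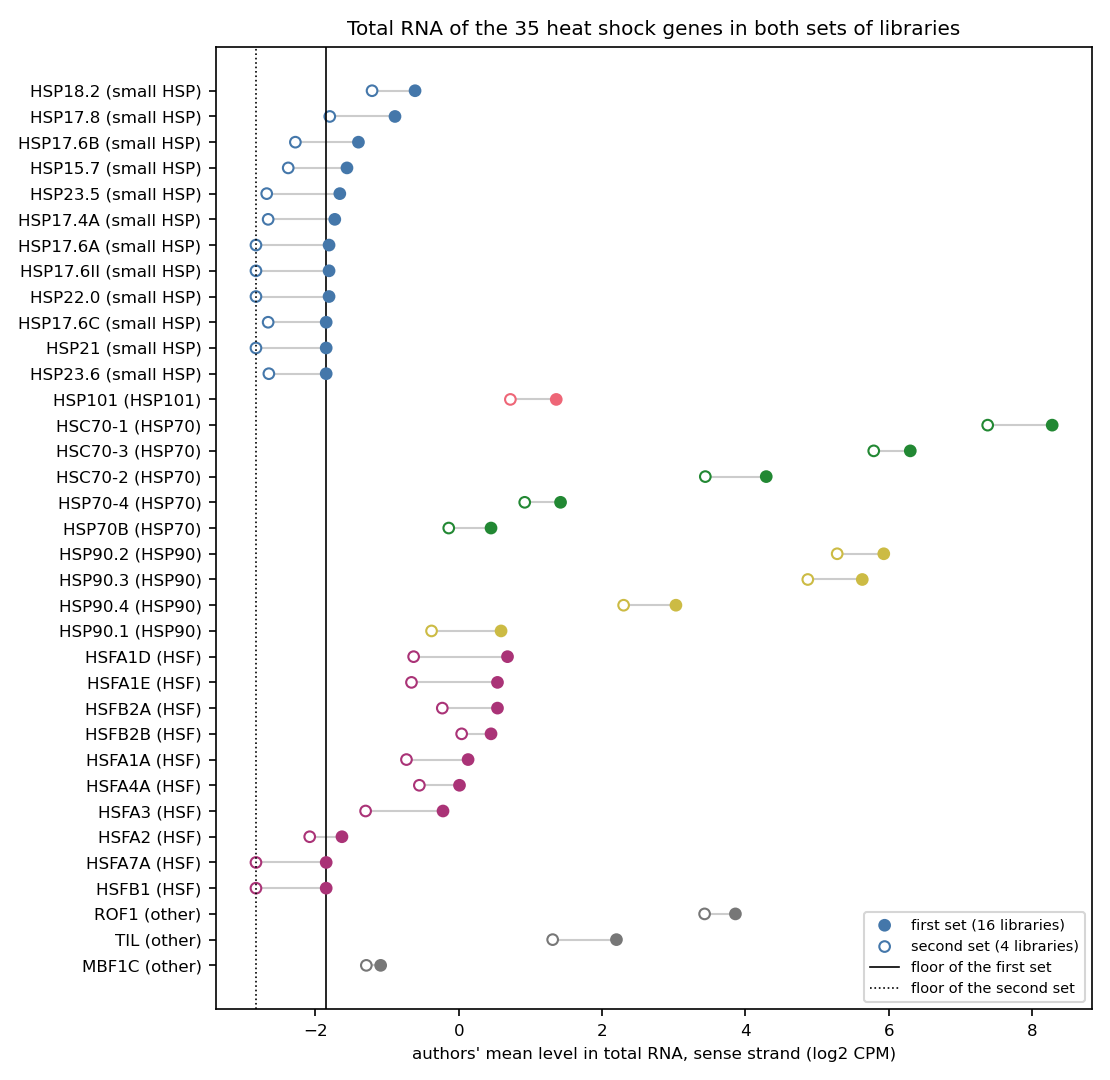
Authors' mean log2 CPM in total RNA on the sense strand (x axis) of the 35 genes (y axis, by role). Filled points are the first set (16 libraries), open points the second (4 libraries), lines mark the floor of each set, and no error is available; the small HSPs sit near the floors and *HSC70-1* at 8.28 and 7.38.

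The order of the genes was nearly the same in both sets. Over the 35 genes the total RNA levels of the sets had a Pearson's r of 1.00 and a Spearman's rho of 0.97, given as a description, since genes are not replicates and the floor is shared. The deposited values were lower in the second set for all 35 members, by 0.19 to 1.31, which for members at a floor is the change of the floor itself. The median of all genes with a mean of at least 2 log2 CPM fell by 0.68. After this shift was subtracted, 15 members with a mean of at least 0 log2 CPM were compared. None was higher in the second set by at least 0.5, compared with 11% of 13440 genes. Of the 15, 1 was lower by that much, *HSFA1D* at -0.62, a share near the 6.03% of genes. The 15 members are too few to tell these counts from the shares over all genes. The median centred difference was -0.05 over the 15 members and 0.01 over all genes compared. The 6 floral markers were all below 0 by the same measure, from -0.60 (*AP3*) to -0.12 (*AP1*), and their part in the value of *HSFA1D* was not tested. The other class A1 factors were at -0.51 (*HSFA1E*) and -0.18 (*HSFA1A*), both with a mean below the minimum, and at -0.11 (*HSFA1B*, not among the 35), with a mean of 0.31. *ROF1* had 0.25, *HSC70-3* 0.18 and *HSC70-1* -0.21.

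Of 41 further heat shock genes, listed by function, 26 were at 0 log2 CPM or above in the first set. The plastid chaperones were at 4.18 to 5.08, the mitochondrial ones at 1.74 to 4.75, and those of the endoplasmic reticulum at -1.53 to 6.91. The 11 other HSF genes ranged from -1.85 to 1.31, and 5 other small HSP genes from -1.81 to 1.34. By the centred difference, none of 23 genes over the minimum was higher in the second set, compared with 11% of all genes. Only 1 was lower, *HSBP*, which encodes a protein that binds HSFs, at -0.72, compared with 6.03% of all genes. These counts are also too few to tell from the shares over all genes. *HSBP* was named after its value had been seen.

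Of the 35 genes 16 were above the antisense floor of -1.77 in total RNA of the first set, against 28.7% of all genes, and 17 above that of -2.73 in the second, against 41.4%. None was at 0 log2 CPM or above, as were only 0.908% and 2.75% of all genes. Only 2 reached -1 log2 CPM in the first set, *TIL* at -0.44 and *HSFB2B* at -0.98, and they were at -0.56 and -1.48 in the second. Both are among the 7 members that overlap an annotated gene on the opposite strand. The end of *TIL* overlaps AT5G58060 by 324 nt, and the sense level of that gene was 1.58. *HSFB2B* overlaps AT4G11670 by 308 nt, with a sense level of 2.08, and the lncRNA gene AT4G05910 by 352 nt. Reads of the neighbour were not separated from antisense reads of the member, so their part was not tested. The other overlapping members, *HSP17.4A*, *HSP101*, *HSC70-3*, *HSFA3* and *MBF1C*, were between -1.77 and -1.58.

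RDR proteins copy RNA into double strands, which Dicer-like enzymes cut into smRNAs of both strands, whereas pieces of a degraded mRNA come from the sense strand. smRNAs of the members were mostly sense, as were those of most genes. The part of RDR products and of mRNA pieces in them was not tested. The values average over mutants of RDR and cofactor genes as well as Col-0. More sense than antisense smRNAs were found at 29 of the 34 members with any smRNA in the first set and at 24 of 28 in the second, compared with 81.8% and 74.6% of all genes with any smRNA. The median antisense share was 29.7% over these members and 25.9% over these genes in the first set, and 3.29% and 19.9% in the second. The shares include members next to the floor. Above 0.0623 CPM of smRNAs in the first set, the share was 9.93% over 17 members and 21.3% over genes, the opposite order. Above 0.00316 CPM in the second set it was 4.8% over 21 members and 19.9% over genes. In that set 19 of the 35 members were at the antisense floor. The highest sense smRNA levels belonged to the most abundant mRNAs. *HSC70-1* had 2.73 log2 CPM sense and -2.10 antisense in the first set, so that antisense smRNAs were 2.62% of both. *HSC70-3* had 0.87 and -3.39, *HSP90.2* 0.61 and -3.37, and *HSP90.3* 0.19 and -3.54. No member reached 0 on the antisense strand in either set, as did only 4.92% and 0.777% of all genes. In the second set the sense values were lower, at -0.16 for *HSC70-1* and -1.91 for *HSC70-3*, and 97.7% of the records in that set's smRNA tables were of reads that aligned to several places, against 76.1% on the sense strand of the first set. Over the 30 members above the floor in both kinds of library, sense smRNAs and total RNA of the first set had a Pearson's r of 0.95 and a Spearman's rho of 0.92. Over the 21 such members of the second set they were 0.92 and 0.78. Over 23812 genes of the first set they were 0.48 and 0.71. These values describe genes, which are not replicates, and have no test.

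*HSP90.1* (AT5G52640, chromosome 5, 21352557 to 21355147, plus strand) stood above this trend. Its sense smRNA level was -0.55 log2 CPM in the first set, higher than that of *ROF1* at -0.99, although *ROF1* had 3.27 log2 CPM more of total RNA. The order was the opposite in the second set, with *HSP90.1* at -4.30 and *ROF1* at -3.54. The log2 ratio of sense smRNAs to total RNA was -1.0 at *HSP90.1*, above 98.5% of 14477 genes, whose median was -4.68. In the second set its ratio of -4.64 was above 97.0% of 13885 genes. Genes were kept for both sets by total RNA of at least 0 log2 CPM in the first set. They also had sense smRNAs above the floor of the set compared. In the second set *HSP90.1* itself was at -0.38 log2 CPM of total RNA. The median over 18 members was -4.77 in the first set. Its bins of 500 nt, which do not separate the strands, held most smRNAs in 1 place. The highest bin of the gene had 0.79 CPM in the first set and 0.206 in the second, or 82.1% and 85.2% of the sum over the bins of the gene. The next highest bin had 0.0762 and 0.0177, which is 10.4 and 11.6 times less. Of the 21-nt windows in the exons of *HSP90.1*, 1.33% occur elsewhere in the genome. With the floor subtracted, the smRNAs counted for the gene were 0.614 CPM sense and 0.0447 antisense in the first set. In the second set they were 0.025 CPM sense and at the floor antisense, well below the 0.206 CPM of its highest bin. Bins and genes were counted separately, and the source of this gap was not tested.

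*HSFB2B* had the highest antisense smRNA level of the members in the first set. Its smRNAs were at -2.03 log2 CPM sense and -1.98 antisense in the first set, which made 52.8% antisense. In the second set, where both levels were near the floor at -4.59 and -4.97, the share was 28.7%. It also had the second highest ratio of smRNAs to total RNA among the members in the first set, above 96.4% of genes, but in the second set it was above only 86.2%, below *HSP90.1*, *HSFA1A*, *HSP70B*, *TIL* and *HSFA1D*. *TIL* had 37.3% and 25.1% antisense smRNAs in the first and second set. Both *HSFB2B* and *TIL* overlap the genes on the opposite strand named above. The smRNAs of those genes were not separated from antisense smRNAs of the members, so their part was not tested. The small HSPs all had sense smRNAs above the floor of -3.86 in the first set, at no more than -3.38, and 5 of 12 did in the second, where the share over all genes was also lower, at 69.5% against 89.7%. *HSP17.6B* and *HSP22.0* each had 71.1% antisense in the first set, of 0.0134 and 0.0135 CPM in all, where the smallest steps above the floor were 0.00184 CPM sense and 0.00155 antisense.

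**Figure D2:**
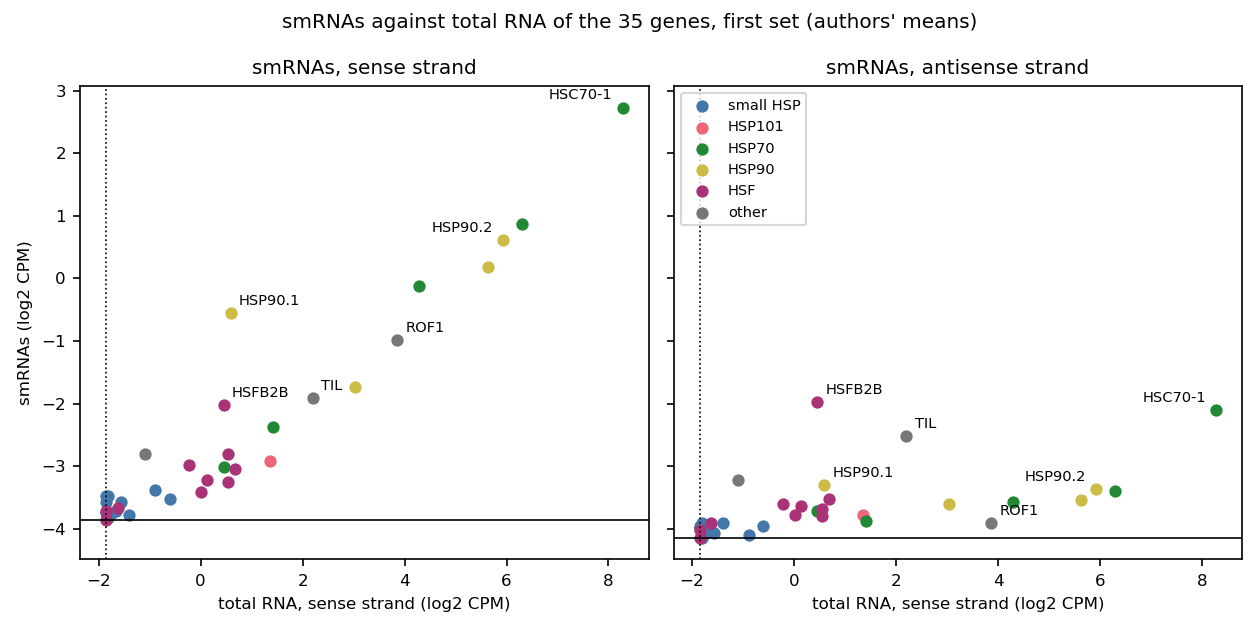
smRNA level on the sense (left) and antisense strand (right) against total RNA on the sense strand, all as the authors' mean log2 CPM of the first set, 1 point for each of the 35 genes with its role in colour, floors as lines and no error available. Sense smRNAs follow total RNA up to *HSC70-1* at 2.73, *HSP90.1* lies above the others at -0.55, and *HSFB2B* has the highest antisense level at -1.98.

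The bins also showed smRNAs beside the genes. Reads with many alignments were kept by the authors when aligning, and how bedtools then counted them in bins is not stated. Over *HSC70-1* the bins held 0.954 CPM near the start of the gene in the first set, rose to 2.49 CPM 2373 nt after it and fell to 0.347 in the last bin. In the second set the same bins held 0.115, 0.39 and 0.0473 CPM, so the profile had the same order there. The flank was the 2 bins next to those that overlap the gene, so it could reach beyond 1000 nt from the gene. A bin of at least 1 CPM in the 2 bins upstream was found at 4 of 35 members in the first set, against 18.3% of 27444 coding genes, and downstream at 3, against 14.3%. Together 7 members had 1 on either side, against 28.1% of genes, and in the second set 4 did, against 11.1%. The 7 of the first set were *HSFA3*, *ROF1*, *HSFA1D*, *HSP17.6C*, *HSFB2B*, *HSP15.7* and *HSP90.4*.

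The highest of these bins began 141 nt beyond the end of *HSFA3* and held 89.6 CPM in the first set, above 99.5% of all bins, and 4.66 CPM in the second, above 99.1%. The reference annotation places a leucine tRNA gene, AT5G03705, in it, on the same strand as *HSFA3*, and the bin also overlaps the coding gene AT5G03710. The gene row of that tRNA was at -3.82 log2 CPM of sense smRNAs in the first set, next to the floor, while the bin was not. Inside *HSFA3* itself the highest bin held 0.124 CPM. The tRNA is printed because it lies in this bin, in TAIR10.1 on the minus strand at chr5:970769-970909, with the tRNA gene in capitals.
tRNA-Leu beside *HSFA3*: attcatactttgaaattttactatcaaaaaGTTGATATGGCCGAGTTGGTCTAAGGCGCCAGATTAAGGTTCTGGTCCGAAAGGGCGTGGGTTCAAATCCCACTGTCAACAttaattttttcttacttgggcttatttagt

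Upstream of *ROF1* a bin ending 595 nt before the gene start held 38.0 CPM in the first set and 4.38 in the second. Of its 21-nt windows 0.417% occur elsewhere in the genome, and no gene is annotated there. Upstream of *HSFB2B* a bin ending 353 nt before the start held 16.7 and 1.56 CPM, and the next bin outward held 4.01 and 0.235. In the first *HSFB2B* bin 33.5% of the 21-nt windows are repeated in the genome. *HSFA1D* had 18.7 and 1.45 CPM in a bin ending 529 nt before its start, where 27.1% of windows are repeated. *HSP17.6C* had a bin with 2 snoRNA genes downstream, above 97.2% of all bins in the first set and with 0.774 CPM in the second. *HSP15.7* had 6.06 and 0.488 CPM upstream, in a bin that overlaps a pseudogene and where 47.9% of windows are repeated. *HSP90.4* had 1.60 and 0.0946 CPM downstream. Farther out, within 4 bins per side, the highest values in the first set were 45.9 CPM downstream of *HSP90.4* and 39.0 CPM upstream of *HSFA1D*. These bins began 1837 and 1529 nt from the genes. Positions of transposable elements were not used here. The middle 150 nt of the *ROF1* bin and of the nearer *HSFB2B* bin are printed, as they hold no annotated gene and differ in their share of repeated windows, on the plus strand of TAIR10.1, which is the strand of both genes, at chr3:9187176-9187325 and chr4:7041676-7041825, with 35.3% and 25.3% G and C.
*ROF1* upstream: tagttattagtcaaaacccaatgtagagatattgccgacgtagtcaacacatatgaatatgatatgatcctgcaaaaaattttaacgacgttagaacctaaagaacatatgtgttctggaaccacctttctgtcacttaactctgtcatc
*HSFB2B* upstream: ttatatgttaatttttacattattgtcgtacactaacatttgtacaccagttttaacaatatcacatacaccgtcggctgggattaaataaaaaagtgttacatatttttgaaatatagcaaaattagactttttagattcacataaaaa

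**Figure D3:**
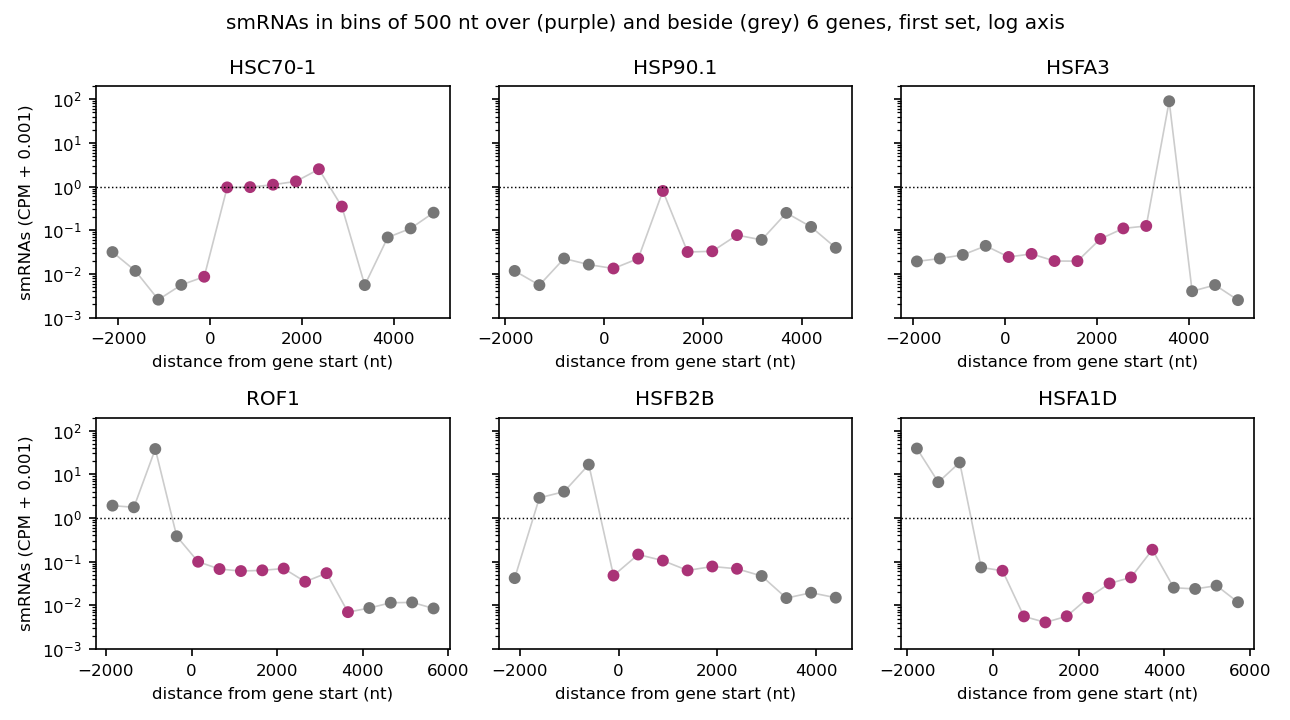
smRNAs of the first set in bins of 500 nt (y axis, CPM plus 0.001, log scale) by distance of the bin centre from the gene start (x axis, nt) for 6 genes, with bins over the gene in purple, bins beside it in grey, 1 CPM as a dotted line and no error available. *HSC70-1* is covered along its length, *HSP90.1* peaks in 1 bin of 0.79 CPM, and the other 4 genes are low between or beside high flanking bins, the highest at 89.6 CPM by *HSFA3*.

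HSFs bind the heat shock element, an inverted repeat of GAA. The motif GAANNTTC, which reads the same on both strands, was sought from 250 nt before to 50 nt after each gene start of the reference. It was present in 10 of 35 members, or 28.6%, and in 11.6% of 27443 coding genes. Small HSPs had it in 4 of 12, HSFs in 3 of 10, HSP70s in 2 of 5 and HSP90s in 0 of 4. In *HSP23.6*, *HSP101*, *HSC70-3* and *HSP70-4* the only match lay after the gene start, at positions 14, 30, 34 and 21 from it. Both HSP70 matches are therefore within the transcribed part. The share of coding genes with a match upstream of the start was not counted. A match is a description and no sign of binding, and other arrangements of the element were not sought. The 10 members with the motif had a median total RNA level of -1.68 log2 CPM in the first set, with a range from -1.85 to 6.30 (*HSC70-3*). The 25 without it had a median of 0.45 and a range from -1.85 to 8.28, so the ranges overlap. *HSFA2* had 3 matches and *HSP17.4A*, *HSP21* and *HSFA7A* had 2 each. Each of these genes had a match upstream of the start, as had *HSP17.6C* and *HSFA4A*. *HSFA4A*, at 0.01 log2 CPM in the first set, was not near the floor. No window of *HSP21* or *HSFA4A* is printed. Windows of 60 nt from the other 4 genes, all at or near the floor, are printed because they hold the motif upstream of the start. The windows are read towards the gene, with GAA and TTC of each match in capitals. They are from TAIR10.1 at chr3:16984933-16984992 (minus strand), chr1:19980220-19980279, chr2:11135510-11135569 and chr3:19264953-19265012 (plus strand).
*HSP17.4A*: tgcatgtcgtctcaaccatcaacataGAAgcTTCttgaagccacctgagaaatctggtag
*HSP17.6C*: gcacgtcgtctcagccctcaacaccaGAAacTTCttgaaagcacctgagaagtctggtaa
*HSFA2*: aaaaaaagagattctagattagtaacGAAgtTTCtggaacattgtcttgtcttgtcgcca
*HSFA7A*: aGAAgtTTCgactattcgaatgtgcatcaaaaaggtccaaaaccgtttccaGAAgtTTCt

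The class I genes *HSP17.4A* and *HSP17.6C*, on different chromosomes, were alike here. From the motif to the end of the window 29 of 34 bases were the same in both, compared with 15 of 34 between *HSP17.4A* and *HSFA2*. The stretches were aligned on the motif, so its GAA and TTC match in each pair by construction and are included in these counts. Both genes were near the floor in total RNA, *HSP17.4A* at -1.73 and -2.66 log2 CPM and *HSP17.6C* at -1.85 and -2.66 in the first and second set.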

How the data were processed

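Libraries of total RNA and of smRNAs from flower buds were processed by the authors, who trimmed adapters with cutadapt, aligned reads to TAIR10 with TopHat, counted them by strand with HTSeq or in bins of 500 nt with bedtools, and tested the difference of every mutant from wild type with edgeR. Versions are not given in the sources used here. The deposited tables hold a mean log2 CPM value over libraries, a fold change, a p-value and a false discovery rate. Of these only the deposited mean log2 CPM was used; the other 3 columns are the authors' comparisons and were not read. The tables hold no depth per library, and rows without a feature held 82.9% of the counted records in the sense total RNA table of the first set and 88.2% in that of the second.

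The 35 members, the 41 further genes and the markers were chosen with earlier results of these data known. Levels were to be compared over the 7 tables of the first set, but these hold 1 and the same column, so the 2 sets were described instead. Set differences were centred on the median of genes with a mean of at least 2 log2 CPM and counted from 0.5 at a mean of at least 0. CPM above the floor was 2 to the power of the value, less the same for the lowest value of the table. This subtraction, the centring of the sets, the bin limit of 1 CPM and the flank of 2 bins per side were chosen after seeing the data. Lengths are unions of the exons in the TAIR10.1 RefSeq annotation, which also gave sequences and positions; the bins of the files matched its chromosome lengths on all 5 chromosomes. All members could be named, and the highest of each role and those above the minimum were given in full. Further genes were to be named only from a difference of at least 0.5. *HSFA1B*, named beside the other class A1 factors, and *HSFA9*, with a mean below the minimum, were named outside this rule. Calculations used Python 3.11.15, pandas 2.3.3, numpy 2.4.6 and matplotlib 3.10.9. The floor subtraction and the centring were tested on simulated data, and the other calculations were not. The sequence of 1 stretch of a member is not reported here.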

Additional observations from a re-analysis of the deposited data

How the results depend on the processing

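All alternatives for the sets and the bins were chosen after seeing the data. The count of members higher in the second set was 0 in every alternative run. The count lower in the second set, 1 as reported, was 2 without a minimum, 0 with a minimum mean of 2 log2 CPM (which *HSFA1D* does not reach), 0 with a limit of 1, and 12 when values were not centred; it was 1 when scaled to reads in features or with the floor subtracted. The count of members with a high bin beside the gene, 7 as reported against 28.1% of genes, was 12 with 4 bins per side (37.8% of genes), 4 with the bins of the second set (11.1%), and 8 and 6 with bin limits of 0.5 and 2 CPM (31.9% and 24.1%). The share of members with the second set's bins was near that of all genes. Members with more sense than antisense smRNAs numbered 29 in each of the 7 tables of the first set, which hold the same column, and 24 in the *rdr3* tables. The planned spreads over those 7 tables, the differences from their median and the lower bounds of a ratio to Col-0 were 0 under each alternative by construction. Leaving out a replicate was not run, since the tables hold no value per library. No paired analysis was possible because the tables hold no value per library. Without these values no mutant could be compared with Col-0, and levels near the floor, among them most small HSPs, rest on few reads.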

Other observations

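One further HSF gene, *HSFA9* (AT5G54070, TAIR10.1 chromosome 5, 21943983 to 21945651, plus strand), is known as a factor of seeds. It was named after its values had been seen. Its sense total RNA was at the floor of -1.85 log2 CPM in the first set and at -1.45 in the second, while its antisense total RNA was at 6.28 and 6.60. The snoRNA gene AT5G54075, at 21945349 to 21945709 on the minus strand, overlaps its end and had sense total RNA of 6.30 and 7.51 and antisense total RNA of -1.77 and -1.48. smRNAs of *HSFA9* were at 1.84 antisense and -0.82 sense in the first set, and those of the snoRNA gene at 1.63 sense and -1.07 antisense. The part of snoRNA reads in the antisense values of *HSFA9* was not tested.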
